A study of Mus musculus with 6 samples.

Results

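The 8 transcripts described here are the mRNAs that the mouse mitochondrial genome carries for complexes I and III of the respiratory chain. They are 7 subunits of complex I (mt-Nd1, mt-Nd2, mt-Nd3, mt-Nd4, mt-Nd4l, mt-Nd5 and mt-Nd6) and 1 of complex III (mt-Cytb). All 8 were found by name among the 55401 entries of a table of gene expression, of which 37 belonged to the mitochondrial genome. The group was selected on its normalized counts, which were lower with itaconate than with NaCl in these same libraries. Its difference between treatments is therefore described without a test.

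The libraries came from splenic CD4+ T cells of naive wild-type C57BL/6 mice, loaded with the division dye CFSE. They were stimulated through CD3 and CD28 by antibodies for 48 h, with IL-2 added at 200 U. Itaconate, an organic acid that macrophages produce from a TCA cycle intermediate when activated, was present at 5 mM in the treated group, and NaCl at 5 mM in the control group. The table's control columns are coded NAC and were read as NaCl, the only other treatment in the labels. Each group had 3 libraries (n = 3). The labels do not say whether they came from separate mice or cultures, so a p-value covers just the variation among these libraries, and that variation may be technical.

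The mitochondrial genome is a small circle transcribed from both strands into long precursors. Most of its mRNAs are cut out of the heavy-strand precursor at the tRNAs that lie between them, while mt-Nd6 is read from the light strand. Each mRNA then has its own stability and tail, so levels can differ although transcription is shared. Complex I takes electrons from NADH and pumps protons, with the 7 mitochondrial subunits forming most of its membrane arm. Cytochrome b, the product of mt-Cytb, is the catalytic core of complex III, which passes electrons from ubiquinol to cytochrome c. In activated T cells this chain supports ATP production, the regeneration of NAD+ and aspartate synthesis.

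Adjacent members share bases, which bears on how reads can be assigned to them. In GENCODE release M21 (GRCm38), mt-Nd4l lies at chrM:9877-10173 and mt-Nd4 at chrM:10167-11544, both on the plus strand, and their coding sequences overlap by 7 bases on what is known to be a single mRNA. mt-Nd5 (chrM:11742-13565, plus strand) and mt-Nd6 (chrM:13552-14070, minus strand) overlap by 14 bases on opposite strands. The shared bases are in capitals, with 30 bases on each side, both read along the plus strand at chrM:10137-10203 and chrM:13522-13595.
mt-Nd4l to mt-Nd4: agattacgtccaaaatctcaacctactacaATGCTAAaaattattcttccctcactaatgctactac
mt-Nd5 to mt-Nd6: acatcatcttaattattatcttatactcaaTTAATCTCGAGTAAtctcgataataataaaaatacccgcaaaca
The first run holds the start of mt-Nd4 inside the end of mt-Nd4l. In the second, the strand setting of the counting is not given in the sources used here, so reads of mt-Nd6 cannot be told apart from antisense reads over it.

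A second limit is set by nuclear copies of mitochondrial DNA. A copy of part of the mitochondrial genome on chromosome 1 is annotated as pseudogenes, and 3 members have a counterpart there that shares most of their 31-base stretches. Gm10222 (chr1:24612407-24612700) shares 98.9% of those of mt-Nd4l, Gm28438 (chr1:24612775-24613119) 98.1% of those of mt-Nd3, and Gm28439 (chr1:24611535-24612410) 62.8% of those of mt-Nd4. For the 5 other members, nuclear transcripts in the table shared between 0% (mt-Nd1) and 16.8% (mt-Nd5). The stretches below contrast a copy that differs from its mitochondrial gene at 1 base of 345 with one that differs at 82 of 1143. Capitals mark the bases that differ.
mt-Nd3: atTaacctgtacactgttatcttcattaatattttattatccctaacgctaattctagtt
Gm28438: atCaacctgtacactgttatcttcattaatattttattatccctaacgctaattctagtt
mt-Cytb: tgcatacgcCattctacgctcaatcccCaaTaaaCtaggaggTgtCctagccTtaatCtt
Gm11410: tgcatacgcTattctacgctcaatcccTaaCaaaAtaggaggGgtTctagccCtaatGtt
They lie at chrM:9459-9518, chr1:24613060-24613119 (minus strand), chrM:14972-15031 and chr4:80004816-80004875. mt-Nd4l and Gm10222 are identical over the 294 bases compared, beginning as follows at chrM:9877-9936.
mt-Nd4l: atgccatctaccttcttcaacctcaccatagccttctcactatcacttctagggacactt
Reads of mt-Nd4l can therefore be placed in either row, and those of mt-Cytb mostly cannot.

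The values are estimated read counts per gene, which the authors divided by a size factor for each library. Recovered totals ran from 20074299 to 24144999 estimated reads per library. The 13 markers of CD4+ T cells were all detected and summed to 95183 to 100051 with itaconate and 92448 to 100803 with NaCl. Of them, 4 rose and 4 fell with itaconate (limma adjusted p under 0.05), where 36.0% of all genes tested changed in either direction. The 2 CD8 markers summed to at most 408 in any library, the 8 B cell markers to at most 463 and the 9 erythroid and platelet markers to at most 117. The 11 myeloid markers summed to 64.5 to 130.3 with itaconate against 45.2 to 60.6 with NaCl, with Csf3r, S100a8 and S100a9 at 0 in every library. The 5 NK cell markers summed to 202 to 236 against 95.4 to 129.5. Eomes was the most abundant of these 5 and the only 1 with a mean value of at least 10. The part of these small differences in the results below was not tested. In bulk RNA, fewer cells of a type and less RNA per cell cannot be told apart.

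All 8 members were lower with itaconate in each of the 3 treated libraries than in any control. Groups that did not overlap in this direction were found for 24.2% of the 13180 genes tested, those with a mean value of at least 10. The members' median log2 fold change, on the scale of log2(value + 1), was −2.01, beside −0.00 over all genes tested and −0.50 over the 5 other mitochondrial mRNAs. All 8 members passed the filter on low values and had a log2 fold change under −1, as did 7.47% of all genes tested. These values are of the same contrast that chose the members and support nothing by themselves.

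mt-Nd1, which encodes a subunit near the ubiquinone site of complex I, is the first mRNA on the heavy strand after the rRNAs (chrM:2751-3707). Its normalized estimated counts were 7452, 6969 and 8978 in itaconate replicates 1, 2 and 3, and 21716, 18322 and 18276 in the controls. The means were 7799.7 ± 1048 and 19438 ± 1973 (SD, n = 3), a 2.49-fold difference (log2 fold change −1.32 ± 0.107 SE). Itaconate replicate 3, the highest treated library, was under the lowest control. mt-Nd2 (chrM:3914-4951), a subunit of the proton-pumping membrane arm, had 4459, 3824 and 4713 with itaconate and 10279, 9155 and 9280.4 with NaCl. Its 2.21-fold difference was the smallest of the 8 (log2 fold change −1.15 ± 0.0949 SE). These are the 2 members that lie ahead of mt-Co1 on the genome.

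The other 6 members lie beyond mt-Co3 and differed more between the groups. mt-Nd3 (chrM:9459-9806), which encodes a small subunit whose loop lies where the peripheral and membrane arms of complex I meet, had counts of 343, 446 and 577 with itaconate. The controls had 2279, 2292 and 2087, a 4.88-fold higher mean (log2 fold change −2.31 ± 0.156 SE). Replicate 1 was the lowest of the treated libraries and replicate 3 the highest. mt-Nd4, an antiporter-like subunit of the proton-pumping arm, had 5279.9, 4163 and 5369 against 23613, 20259 and 20976. Its means were 4937 ± 672 and 21616 ± 1766 (SD, n = 3), 4.38-fold apart (log2 fold change −2.14 ± 0.107 SE). mt-Nd4l, a small membrane subunit read from the same mRNA as mt-Nd4, had the fewest counts, at 89.5, 118 and 12.4 against 446, 203 and 502. Itaconate replicate 3 stood apart at 12.4, which is 12.04 estimated reads, and the log2 fold change of −2.77 had the widest error (0.632 SE). Without that library it was −1.79, the highest of 13 alternatives that reached down to −3.37 (without itaconate replicate 2).

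mt-Nd5, the largest of the antiporter-like subunits, had 5778, 5767 and 6980.4 with itaconate and 22464, 22146 and 23267 with NaCl. Its means were 3.66-fold apart (log2 fold change −1.88 ± 0.0911 SE). The controls were closely alike (SD 578), and the highest treated library was itaconate replicate 3. mt-Nd6, the only protein-coding gene of the light strand, had 1087, 1073 and 1100.3 against 3639, 3332 and 3837. The treated libraries were closely alike for this gene (SD 13.6), and the means were 3.32-fold apart (log2 fold change −1.73 ± 0.0898 SE). mt-Cytb (chrM:14145-15288), the only member of complex III, had 3125, 3647 and 4918 against 22505, 19228 and 21370.1. Its fold of 5.40 between means was the largest of the 8 rows taken alone, while the fitted fold change was lower only for mt-Nd4l (−2.46 ± 0.136 SE for mt-Cytb). Summed with its nuclear copy, mt-Nd4l was 5.87-fold apart between means. Of all 13180 genes tested, 134 had a lower log2 fold change than mt-Cytb and 788 a lower one than mt-Nd2, the members at the ends of the range once mt-Nd4l is set aside.

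**Figure D1:**
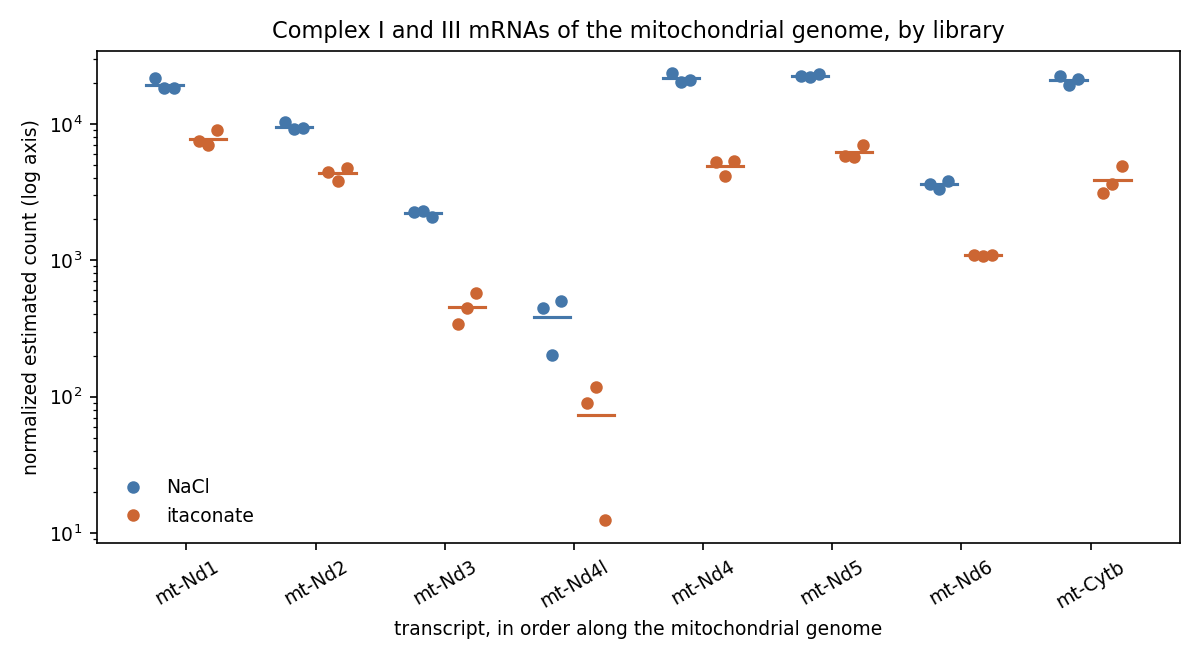
Normalized estimated count (log axis) of each of the 8 mRNAs in the 3 NaCl (blue) and 3 itaconate (orange) libraries, in order of replicate within each group, with the group mean as a line. The groups do not overlap for any member, and mt-Nd4l in itaconate replicate 3 (12.4) stands apart from the other treated libraries.

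Within a treatment most members moved together in some libraries and apart in others. Itaconate replicate 3 was the highest treated library for 7 of the 8 members, the exception being mt-Nd4l, and its median deviation from the treated mean was 0.16 on the log2 scale. Itaconate replicate 2 was lowest for 5 members (mt-Nd1, mt-Nd2, mt-Nd4, mt-Nd5 and mt-Nd6). NaCl replicate 2 was the lowest control for 6 members, all but mt-Nd1 and mt-Nd3. By contrast, NaCl replicate 3 was the highest control for 3 members and the lowest for 2. In itaconate replicate 1, mt-Nd3 (−0.37) and mt-Cytb (−0.29) lay under the treated mean, while mt-Nd4 (0.11) and mt-Nd4l (0.79) lay above it. These deviations were smaller than the difference between the treatments for each member, and the members of a library share its size factor.

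The 5 other mitochondrial mRNAs serve as a reference. mt-Co1, the catalytic subunit of complex IV, had 182957, 186702 and 170542 normalized estimated counts with itaconate and 167614, 162797 and 169114 with NaCl (log2 fold change 0.11 ± 0.0991 SE). Its groups did not overlap, with the treated libraries higher, but the gene did not pass the test (limma adjusted p = 0.407). The complex IV mRNAs mt-Co2 and mt-Co3 had log2 fold changes of −0.35 ± 0.0900 and −0.50 ± 0.0968, and the ATP synthase mRNAs mt-Atp6 and mt-Atp8 had −0.80 ± 0.0895 and −0.99 ± 0.190 (SE). Of the rRNAs, mt-Rnr1 of the small ribosomal subunit had 0.12 ± 0.0804 and mt-Rnr2 of the large subunit −0.98 ± 0.103. Of these 7 reference transcripts, 5 fell by the limma test (mt-Co2, mt-Co3, mt-Atp6, mt-Atp8 and mt-Rnr2), each with groups that did not overlap, and 0 rose. Each of the 8 members had a lower log2 fold change than every one of these 7 transcripts. Of the 22 mitochondrial tRNAs, 3 had any value above 0, the highest being 1.87, so nothing can be read from them.

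**Figure D2:**
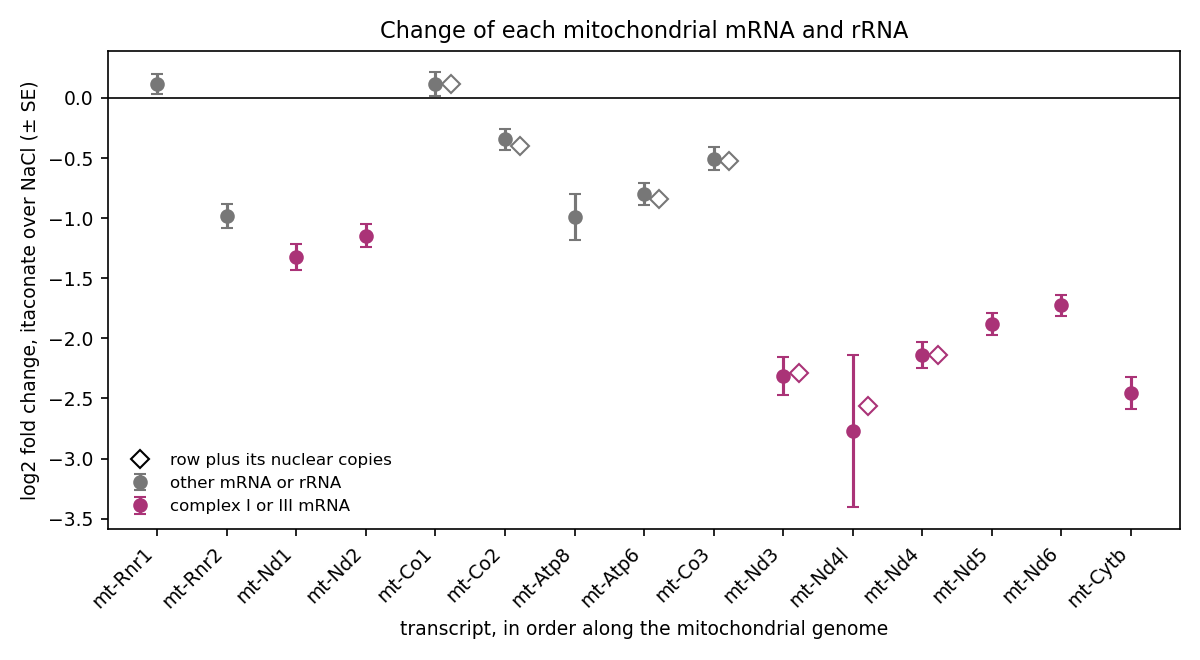
Log2 fold change of itaconate over NaCl for the 15 mitochondrial mRNAs and rRNAs in genome order, with the SE of the fit (filled circles), and for each row summed with its nuclear copies (open diamonds). The complex I and III mRNAs (purple) lie between −1.15 and −2.77, under every other transcript (grey).

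The make-up of the mitochondrial mRNA values differed accordingly. The 8 members took 0.130%, 0.121% and 0.155% of each itaconate library's total, and 0.499%, 0.436% and 0.454% in the controls. The rows of the 5 other mRNAs, without their nuclear copies, summed to 1.03% ± 0.0182 with itaconate and 1.04% ± 0.0236 with NaCl (SD, n = 3). The sum of these rows alone differed by less than the spread between replicates. Within the 13 mitochondrial mRNAs, the members made up 11.6% ± 1.52 of the values with itaconate and 30.8% ± 1.02 with NaCl (SD, n = 3). The ratio of members to other mRNAs differed by −1.77 on the log2 scale (SD 0.156). mt-Co1 alone made up 72.6% of the mRNA values with itaconate and 51.1% with NaCl. With mt-Co1 left out of the reference, the ratio differed by −1.22 (SD 0.0736). All these shares leave out the rows of nuclear copies, which held 74.3% (itaconate) and 75.2% (NaCl) of the sum with mt-Co2. With copies summed, the members' share of the total differed by −1.79 and the ratio by −1.70 on the log2 scale. As the share differed by more than the ratio, the 5 other mRNAs with their copies were lower with itaconate.

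**Figure D3:**
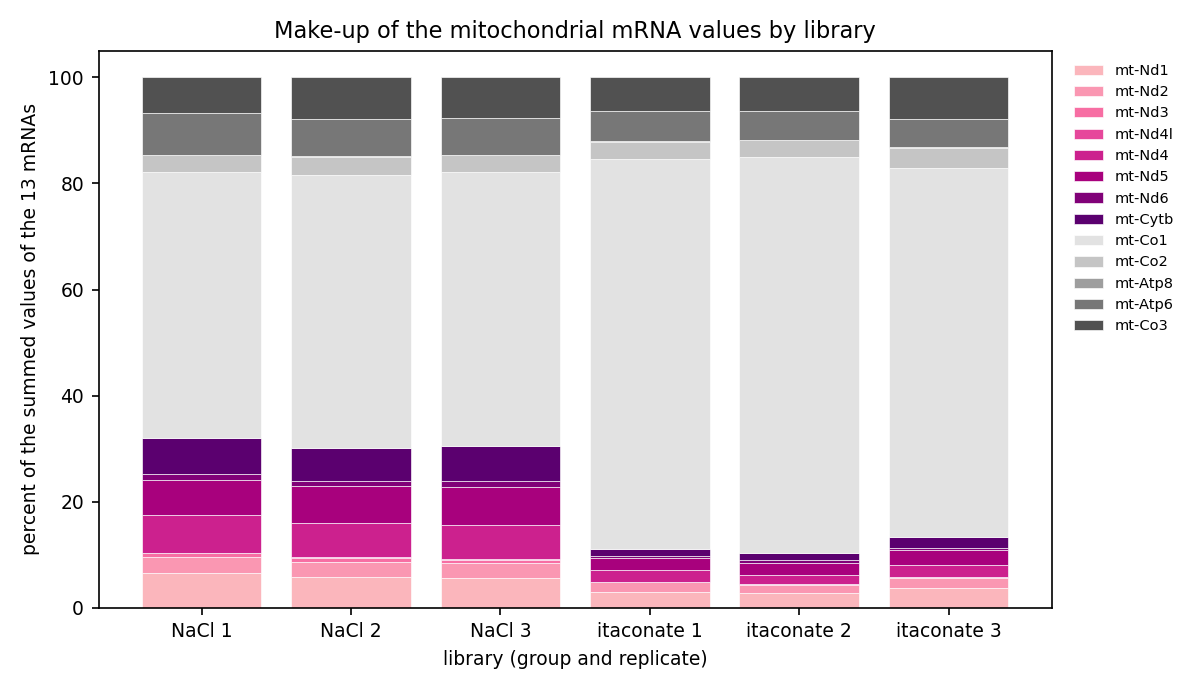
Percent of the summed normalized estimated counts of the 13 mitochondrial mRNAs held by each mRNA, as stacked bars from 0 to 100, for 3 NaCl and 3 itaconate libraries. Rows of nuclear copies are left out. The complex I and III mRNAs (pink to purple) hold 30.1% to 32.0% in the controls and 10.4% to 13.3% with itaconate, and mt-Co1 (lightest grey) holds most of the rest.

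The rows of the nuclear copies can hold reads of the members themselves, so their values are a description and not a separate result. Gm10222, the copy of mt-Nd4l, had 159, 128 and 171 with itaconate and 1009.9, 1028 and 795 with NaCl, more than the mitochondrial row itself in each library (log2 fold change −2.62 ± 0.160 SE). It held 69.8% ± 21.2 of the summed count with itaconate and 71.4% ± 11.2 with NaCl (SD, n = 3). Summed over both rows, mt-Nd4l had 249, 246 and 184 against 1456, 1232 and 1297, and the groups were 5.87-fold apart. The library that stood apart at 12.4 was thus at 184 once its copy was added. Gm28439, the copy of mt-Nd4, had 14.8, 17.3 and 28.6 against 140.02, 55.3 and 52.3 (log2 fold change −1.88 ± 0.440 SE). Gm28438, the copy of mt-Nd3, had 19.8, 0 and 58.7 against 140.2, 50.5 and 47.7, with groups that overlapped. Both copies held little of their sums, at most 9.25% of the sum for mt-Nd3 and 0.589% for mt-Nd4 in any library. Summed with them, mt-Nd3 differed by −2.29 and mt-Nd4 by −2.14 on the log2 scale. Copies of some reference transcripts held more. Gm28661 and a minor copy, Gm13341, held 74.3% (itaconate) and 75.2% (NaCl) of the sum with mt-Co2. The summed differences of mt-Co1, mt-Co2, mt-Co3 and mt-Atp6 were 0.12, −0.40, −0.52 and −0.84, and each had the sign of its own row.

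**Figure D4:**
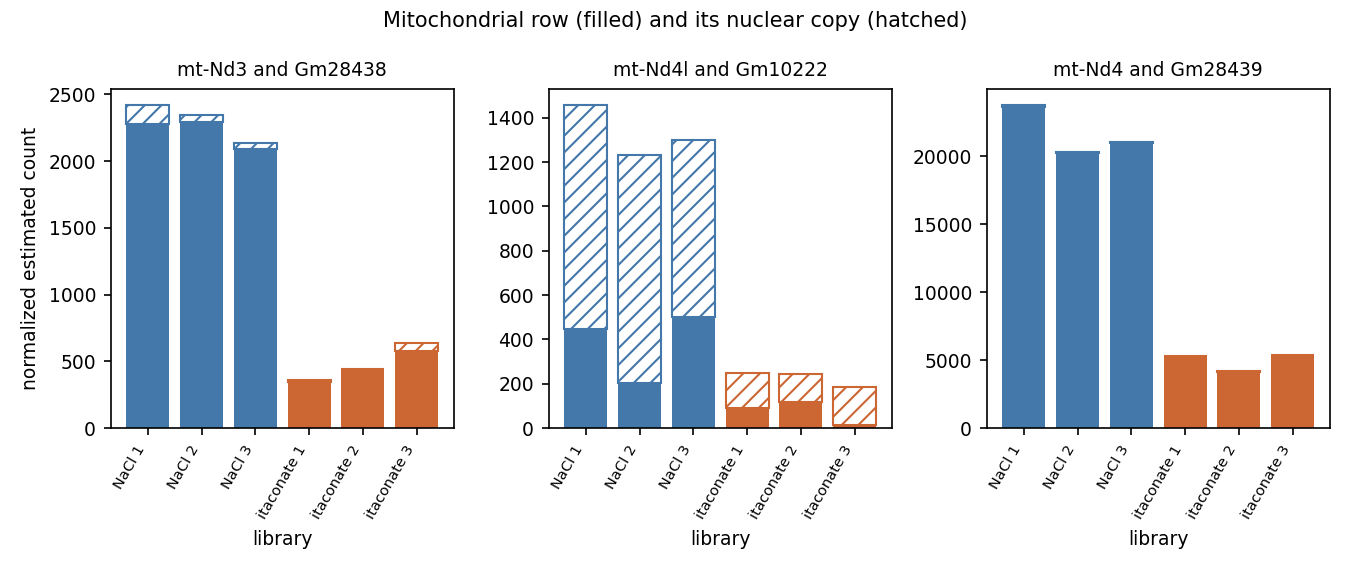
Normalized estimated count of mt-Nd3, mt-Nd4l and mt-Nd4 (filled bars) with that of the nuclear copy on top (hatched), for the 3 NaCl (blue) and 3 itaconate (orange) libraries; each panel has its own scale from 0. Gm10222 holds most of the mt-Nd4l sum, and the sums are lower in every itaconate library for all 3 genes.

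Levels per kilobase of annotated length, which allow genes to be compared, gave a different order of mean levels in each treatment. In the controls mt-Nd1 was first with 20311 ± 2062 normalized counts per kilobase, followed by mt-Cytb (18387 ± 1455), mt-Nd4 (15687 ± 1282) and mt-Nd5 (12404 ± 317). After these came mt-Nd2 (9221 ± 593), mt-Nd6 (6941 ± 490.0), mt-Nd3 (6378 ± 329) and mt-Nd4l (1293 ± 535; SD, n = 3 for each). The libraries of mt-Nd1 and mt-Cytb, of mt-Cytb and mt-Nd4, and of mt-Nd6 and mt-Nd3 overlapped. With itaconate mt-Nd1 remained first at 8150.2 ± 1095 per kilobase and mt-Nd2 was second at 4174 ± 441. mt-Nd4 (3583 ± 488), mt-Cytb (3406 ± 806) and mt-Nd5 (3386 ± 382) came next, and neighbours from mt-Nd2 to mt-Nd5 overlapped. mt-Nd6 (2094 ± 26.2), mt-Nd3 (1308 ± 336) and mt-Nd4l (247 ± 184) followed without overlap.

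The ratio of 2 members within a library was tested next. The pairs were ranked on means over both treatments in the same 6 libraries that were then tested. The direction of a step was thus largely set in advance, and its p is a description rather than support. Each ratio also holds the treatment difference on which the members were selected. Over all 6 libraries, 7 pairs of neighbours in the order of mean level per kilobase were compared by a two-sided exact sign-flip permutation test, whose smallest possible p is 0.0312. In 3 of the pairs the step was in the same direction in 6 of 6 libraries and reached that p: from mt-Nd1 to mt-Cytb (mean log2 ratio 0.71 ± 0.638 SD), from mt-Nd2 to mt-Nd6 (0.70 ± 0.338) and from mt-Nd3 to mt-Nd4l (2.66 ± 1.43). Within a treatment, the step from mt-Nd1 to mt-Cytb was 1.28 ± 0.206 with itaconate and 0.14 ± 0.0957 with NaCl, and that from mt-Nd2 to mt-Nd6 was 0.99 ± 0.139 and 0.41 ± 0.119 (log2 ratio, SD, n = 3). The step from mt-Nd5 to mt-Nd2 changed sign, at −0.30 ± 0.120 with itaconate and 0.43 ± 0.103 with NaCl. After Benjamini-Hochberg adjustment over the 7 pairs their exact p was 0.0729, so 0 pairs passed at 0.05, with 3 under 0.05 unadjusted. The remaining 4 steps, mt-Cytb to mt-Nd4, mt-Nd4 to mt-Nd5, mt-Nd5 to mt-Nd2 and mt-Nd6 to mt-Nd3, had exact adjusted p from 0.109 to 0.688. Short transcripts yield fewer fragments per base. With lengths counted as the places where a 200-base fragment can start, mt-Nd3 moved up to between mt-Nd4 and mt-Nd5, and mt-Nd4l stayed last. The step from mt-Nd2 to mt-Nd6 was then 0.31 ± 0.338, in 5 of 6 libraries (exact p = 0.125, adjusted 0.219), while those from mt-Nd4 to mt-Nd3 and from mt-Nd6 to mt-Nd4l were at the smallest possible p. With the nuclear copies summed, the step from mt-Nd3 to mt-Nd4l was 0.70 ± 0.442 in place of 2.66, in 6 of 6 libraries.

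Members that share a transcript or lie side by side were compared by their levels per kilobase of full annotated length. mt-Nd4l, although on the same mRNA as mt-Nd4, had 7.36% ± 6.05 of its level per kilobase with itaconate and 8.18% ± 3.27 with NaCl (SD, n = 3). With the nuclear copies added, these were 21.6% ± 5.76 and 28.4% ± 0.248. mt-Nd4l has 297 annotated bases and mt-Nd4 1378, and short transcripts yield fewer fragments per base. The part of length in this ratio was not tested. mt-Nd6 stood at 62.3% ± 5.99 of the level per kilobase of mt-Nd5, its neighbour on the other strand, with itaconate and at 55.9% ± 2.68 with NaCl, and the groups overlapped. Against mt-Cytb on its other side, mt-Nd6 was at 76.7%, 64.9% and 49.3% in the itaconate libraries and at 35.6%, 38.2% and 39.6% in the controls, with no overlap.

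The medians over the nuclear genes for the same complexes were near 0. Of 37 nuclear subunits of complex I, 6 fell, 1 rose and 30 did not pass (limma with Benjamini-Hochberg adjustment over all genes at 0.05; median log2 fold change −0.074). Of all genes tested, 17.8% fell, 18.2% rose and 36.0% changed in either direction by the same rule. Ndufv3, an accessory subunit of the NADH-oxidizing module, fell from 3377 ± 292 to 1906 ± 174 normalized counts (SD, n = 3; log2 fold change −0.83 ± 0.0991 SE, limma adjusted p = 6.06e-05). The accessory subunit genes Ndufs4 (−0.53 ± 0.120 SE) and Ndufb9 (−0.43 ± 0.0947) also fell. Of 16 measured assembly factors of complex I, 3 fell and 2 rose (median −0.049). Ndufaf6 rose by 1.05 ± 0.267 on the log2 scale, while Ecsit (−0.51 ± 0.122) and Nubpl, which delivers iron-sulfur clusters to complex I (−0.73 ± 0.212), fell. In complex III, 2 of 15 genes fell and 1 rose (median 0.041). Uqcrq, a small subunit that sits against cytochrome b, fell from 3482 ± 433 to 1659 ± 60.1 (log2 fold change −1.06 ± 0.102 SE, limma adjusted p = 1.21e-05). Lyrm7, a chaperone of the Rieske iron-sulfur protein, fell at a low level, from 106 ± 33.7 to 42.9 ± 5.69 (−1.24 ± 0.305), and the hinge protein gene Uqcrh rose by 0.42 ± 0.0912. Without NaCl replicate 3 the subunit count of complex I was 4 in place of 7. The assembly factor count was 3 in place of 5 without that library or without itaconate replicate 2, and 2 without NaCl replicate 2.

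The machinery that makes and processes mitochondrial RNA had 10 of 39 genes that fell and 0 that rose (limma adjusted p under 0.05, median log2 fold change −0.21). Of all genes tested, 17.8% fell and 18.2% rose by that rule. Fastkd3 and Fastkd2, of the FASTK family of RNA-binding proteins of the mitochondrion, fell with log2 fold changes of −0.70 ± 0.134 and −0.78 ± 0.183 (SE). Ssbp1, the single-stranded DNA-binding protein of mitochondrial DNA, fell as well (−0.53 ± 0.117). Among genes outside the naming rule, chosen for their roles after the values were seen, the RNA polymerase Polrmt (0.084 ± 0.125), the DNA-packaging and transcription factor Tfam (0.046 ± 0.107) and the mRNA-stabilizing Lrpprc (−0.31 ± 0.123) did not pass. The elongation factor Tefm, likewise outside the rule, fell, with a log2 fold change of −1.01 ± 0.294. A log2 fold change under that of mt-Nd2 was found for Lyrm7 among the complex III genes and for Mterf1b (−1.16 ± 0.328), of the mitochondrial termination factor family and also named after its values were seen, among the RNA machinery, and for 0 genes of the other 3 lists. The count of 10 was 5 without NaCl replicate 3 and 6 without itaconate replicate 2. Of 23 genes taken as a measure of mitochondrial content, 3 fell and 2 rose (median −0.043). Cs, the citrate synthase gene, rose by 0.55 ± 0.0871, whereas the matrix chaperone gene Hspa9 (−0.48 ± 0.104) and the outer-membrane channel gene Vdac1 (−0.37 ± 0.112) fell. That count of 5 was 3 without itaconate replicate 2, NaCl replicate 1 or NaCl replicate 2, and 2 without NaCl replicate 3.

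**Figure D5:**
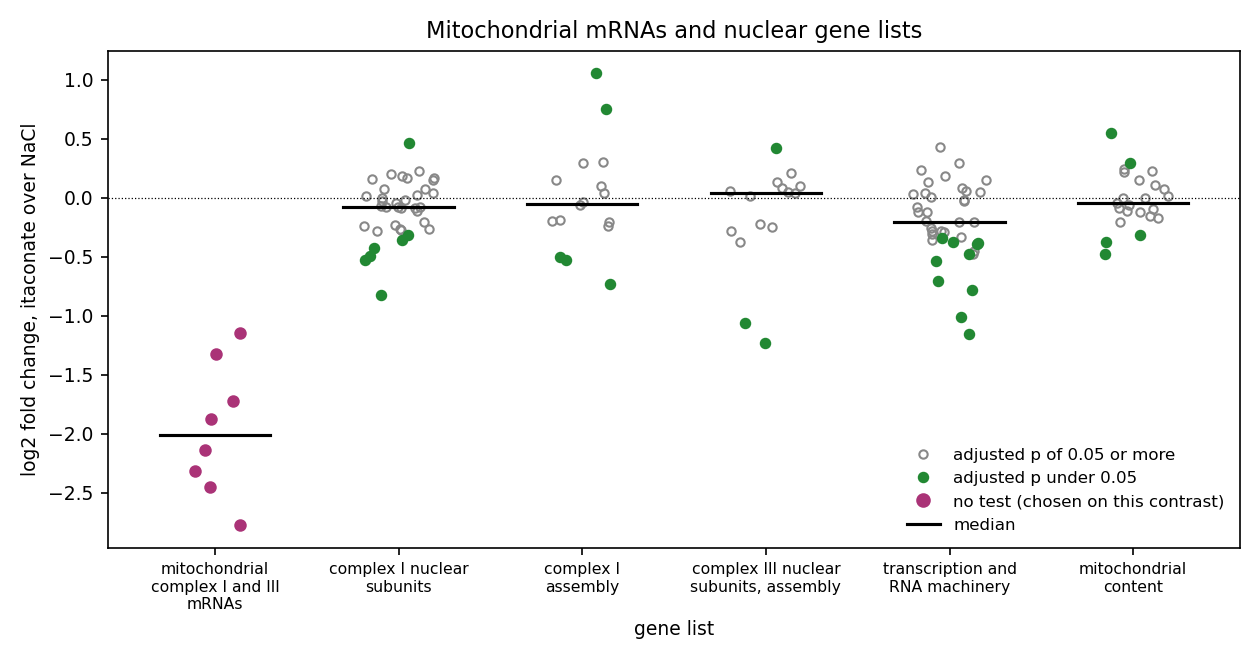
Log2 fold change of itaconate over NaCl for the 8 mitochondrial mRNAs of complexes I and III (purple, no test) and for the genes of 5 nuclear lists, with the median of each as a line; green genes passed at a limma adjusted p under 0.05. The medians of the nuclear lists lie between −0.21 and 0.041, and that of the mitochondrial mRNAs at −2.01.

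Among 11624 tested genes outside the mitochondrial genome without predicted or clone names, the profiles most like the mean of the 8 members were ranked by the root mean square difference of centred log2 values over the 6 libraries. The 5 nearest were Shc4, an adaptor of the Shc family (0.0677), the Rab effector gene Exph5 (0.122), the mitochondrial inner-membrane protein gene Higd1a (0.143), the galactokinase gene Galk1 (0.177) and Rhobtb1 (0.181). For comparison, the members themselves lay between 0.138 (mt-Nd6) and 1.09 (mt-Nd4l) from their own mean. Galk1 had 1153, 886 and 1107 normalized counts with itaconate and 3611, 3546 and 4163 with NaCl. Higd1a had 993, 1017 and 1178 against 3858, 3406 and 3814. Shc4, Exph5 and Rhobtb1 were at low levels, with control means of 69.5, 210 and 91.4. Since the treatment difference dominates these profiles, the ranking chiefly finds genes with a difference of the same size.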

How the data were processed

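RNA was sequenced from 6 libraries of cultured CD4+ T cells, 3 per treatment. The authors deposited 1 table of estimated counts per gene divided by a size factor, which was treated as a signal. The submitters' processing notes name STAR 2.7.0f, RSEM 1.3.0 and the build mm10. The annotation, strand setting, RNA selection and size-factor tool were not given in the sources used here. Between 79.9% and 82.2% of values above 0 were whole reads (within 0.02 reads), so no count model was used. Intervals for counting error are not given, since RSEM divides shared reads. Replicates of a group differed by more than sampling noise (chi-square per degree of freedom 12.1 to 24.0).

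Values with a mean of at least 10 were taken as log2(value + 1), which understates the change of low genes, and fitted across 13180 genes with limma 3.58.1 in R 4.3.3 (intensity trend, no covariate, two-sided, Benjamini-Hochberg at 0.05). The fit was tested on simulated data. For symbols on several entries the highest entry kept the symbol. Positions, lengths and sequences are from GENCODE release M21 of GRCm38, the assembly of mm10. A nuclear copy is a gene of the table that shares at least 25% of a mitochondrial transcript's 31-base stretches, a limit set after the values were seen. Levels were compared in Python 3.11.15 with scipy 1.17.1.

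Named are all members, the other mitochondrial mRNAs and rRNAs, copies, the 3 genes of smallest p of each nuclear list and the 5 most similar profiles (predicted and clone names left out). The members and lists were chosen with earlier results of these data known. The alternatives tried were other pseudocounts, filters, scalings and lengths, the replicate number as a block, summed copies and each library left out.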

Additional observations from a re-analysis of the deposited data

How the results depend on the processing

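Every member kept a negative log2 fold change under each of its 12 or 13 alternatives. The median over the 8 was −2.01. It moved by more than the spread between replicates to −1.90 after quantile normalization and to −1.88 without itaconate replicate 3. Without that library mt-Nd4l went from −2.77 to −1.79, which changed its place in the order. Each of the other members had a lower log2 fold change without it, for example mt-Cytb at −2.64 in place of −2.46. With single libraries left out the median ranged from −2.04 to −1.88. mt-Nd5 was −1.75 after quantile normalization. The ratio of members to other mitochondrial mRNAs (log2 difference −1.77) was −1.46 from means of log2 values and −1.22 without mt-Co1, the latter chosen after seeing the data. The median of the 3 members summed with their copies (−2.29) ranged from −2.42 to −2.19 without single libraries. The −2.42, without itaconate replicate 3, was a move of more than the spread between replicates.

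When replicate number was fitted as a replicate block, 11 rather than 7 nuclear complex I subunits and 17 rather than 10 genes of the RNA machinery passed; the cause was not tested. The labels do not say whether the replicate numbers pair the libraries. Deviations of same-numbered libraries correlated across genes at 0.146, 0.0383 and 0.128, and each itaconate library correlated best with its own number. Libraries of unlike number correlated between −0.133 and 0.0204. The main fit has no block, so it does not account for any such pairing. The block changed no other count by more than 1.5 times. The mitochondrial content count of 5 was 3 with a pseudocount of 0.1 or no filter and 2 without the intensity trend. Leaving out single libraries gave counts of 4 to 8 for complex I subunits, 2 to 5 for assembly factors, 5 to 14 for the RNA machinery and 2 to 6 for mitochondrial content, with fewer samples in each fit.

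The level order was not retested without single libraries, since 5 libraries cannot give an exact p under 0.0625. Copies were found by sequence only, as the annotation pairs none by name. At 12.04 estimated reads, mt-Nd4l in itaconate replicate 3 is the lowest value of any member. In that library its copy Gm10222 held 93.3% of their sum, so the low value also reflects how shared reads were divided.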
